A study of Homo sapiens with 6 samples.

Results

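The VPS10 domain sorting receptors are a family of 5 human genes, SORCS2, SORL1, SORT1, SORCS1 and SORCS3, and all 5 were followed here among the 57905 genes of the count table. The family was chosen by name, led by SORCS2, with earlier expression results of the same libraries known, and the values that prompted the choice are not recorded. Levels and fold changes of the 5 receptors are therefore given as a description, without a test. RNA was sequenced from HCT116, an established colorectal carcinoma cell line with wild-type p53, in 3 groups of 2 libraries. Nut 0h cells received only DMSO, the drug vehicle, Nut 1h cells received 10 µM Nutlin-3a for 1 h, and Nut 10h cells received the same dose for 10 h. Nutlin-3a is a small molecule that keeps p53 from binding its inhibitor MDM2. All 6 libraries come from 1 cell line, and both treated groups are read against the same 2 vehicle libraries.

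VPS10 receptors are type I membrane proteins that carry cargo between the trans-Golgi network, the cell surface and endosomes, and several of them also act as receptors at the cell surface. They are synthesised as precursors that furin cleaves, they are returned from endosomes to the Golgi by the retromer complex, and they can be shed from the surface by ADAM metalloproteases and then cut within the membrane by gamma-secretase. The family is best known from neurons, where SORCS2 and sortilin (the product of SORT1) bind proneurotrophins together with the neurotrophin receptor NGFR, and where SORL1 directs trafficking of the amyloid precursor protein.

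Library depth ran from 26068076 to 35473485 assigned counts, and the shallowest library was replicate 2 of Nut 1h. Of the 57905 genes, 16565 passed the filter on low counts and are called the tested genes. SORCS2, SORL1 and SORT1 are among them, although the receptors received no p-value. Of the colorectal epithelial markers, 6 of 7 passed that filter. Their summed level was 4975 to 5860 CPM (counts scaled to a common library size) in vehicle, 3392 to 3691 after 1 h and 6245 to 7485 after 10 h. KRT8 and KRT19 made up most of this sum, and single markers differed from it, with EPCAM at 0.46 and CDH1 at 0.51 on the log2 scale after 1 h (both called higher) and EPCAM at -0.32 after 10 h (called lower). The 4 neuronal and glial markers together had 3.45 to 3.98 CPM in vehicle. This sum was 2.36 to 2.64 CPM after 1 h and 2.52 to 2.76 after 10 h. RBFOX3 was called lower at both times (adjusted p = 0.0371 and 0.0407, edgeR quasi-likelihood test). Both calls rest on few counts, 35 and 66 in vehicle, 26 and 21 after 1 h, and 22 and 29 after 10 h. Both leukocyte markers together reached at most 0.0585 CPM, the 1 endothelial marker that could be matched reached at most 0.0381 CPM, and the pair of fibroblast collagens, nearly all of it COL1A1, summed to 40.5 to 42.2 CPM in vehicle, 23.7 to 24.5 after 1 h and 35.8 to 38.7 after 10 h. COL1A2 had 25 counts in replicate 2 of Nut 10h and at most 1 elsewhere. The 1 h fold changes followed GC content, as described further on, and the marker values carry no offset for it. GC content was 61.8% for KRT19, 61.5% for COL1A1, 58.5% for RBFOX3 and 56.2% for KRT8. It was 48.2% for CDH1 and 44.3% for EPCAM. The part of these marker levels in the values of the receptors was not tested. The p53 target MDM2 rose by 2.19 on the log2 scale after 1 h (SE 0.13, adjusted p = 3.55e-08, edgeR quasi-likelihood test) and by 3.75 after 10 h (SE 0.13, adjusted p = 4.51e-10). CDKN1A, the p53-induced CDK inhibitor p21, rose by 3.84 after 10 h (SE 0.11, adjusted p = 1.03e-10) and was at 0.05 after 1 h (SE 0.10, adjusted p = 0.704), or 0.73 with the offset for GC content described further on (adjusted p = 1.05e-06).

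The 5 genes differ widely in size and position. On GRCh37, SORCS2 (ENSG00000184985) lies at chr4:7194265-7744563 on the plus strand and spans 550.3 kb. SORL1 (ENSG00000137642) lies at chr11:121323023-121504472 on the plus strand and SORT1 (ENSG00000134243) at chr1:109852190-109940540 on the minus strand, with spans of 181.4 kb and 88.35 kb. SORCS1 (ENSG00000108018) at chr10:108333421-108924464 on the minus strand and SORCS3 (ENSG00000156395) at chr10:106401048-107025000 on the plus strand are neighbours on one chromosome arm and span 591 kb and 624 kb. The longest annotated transcript of SORCS2 has 6152 bases and a GC content of 61.64%, against 47.35% for SORL1 and 44.76% for SORT1.

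Because the treatment acts on p53, the 5 gene bodies were searched for the consensus p53 response element in its form of 2 half-sites without a spacer. Forms with a spacer between the half-sites were not searched. A match had to keep the 4 core bases and could miss at most 1 other base. The element is its own reverse complement, so that one search covers both strands. SORCS2 held 2 such matches, SORCS3 held 1, and SORL1, SORT1 and SORCS1 held 0. All 3 matches lie in introns and are written out here, read 5′ to 3′ on the plus strand, since p53 is the factor on which the treatment acts. Capitals mark the core C and G of each half-site.
SORCS2 match at chr4:7315370-7315389: aaaCttGcctggcCttGtct
SORCS2 match at chr4:7685150-7685169: gatCttGtctgggCttGctc
SORCS3 match at chr10:106569159-106569178: aggCtaGcccaggCttGttc

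The SORCS2 matches lie 121.1 kb and 490.9 kb from the start of the gene, and each misses 1 base of the consensus. The SORCS3 match, at 168.1 kb, misses 0. Such matches are common at this scale. Of windows as long as SORCS2, 48.2% held at least 1 match and 14.7% held at least 2, and for the length of SORCS3 the share with at least 1 was 51.9%. The corresponding shares were 50.1% for the length of SORCS1, 19.4% for SORL1 and 10% for SORT1. A match shows only that these letters are present, and binding was not measured in these libraries. The SORCS2 promoter was not analysed here. In the RefSeq promoter windows on GRCh38.p14, 300 bases around each start, single half-sites of the consensus were searched for SORT1 (2 windows), SORL1, SORCS1 and SORCS3. None of these 5 windows held one, as against 6.63% of all 35116 windows.

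SORCS2 was nearly silent in vehicle-treated HCT116 cells and reached the level of the other detected members after 10 h of Nutlin-3a. In the vehicle libraries 20 and 37 counts were assigned to SORCS2, and after 1 h of treatment 18 and 7. After 10 h the same gene had 1124 and 1078 counts. Both Nut 10h libraries lay far above the other 4, which did not exceed 37 counts. In bulk libraries such as these, more cells that express the gene and more RNA in each cell cannot be told apart. Exact 95% Poisson intervals, which cover counting error only, ran from 12.2 to 30.9 and from 26.1 to 51 for the vehicle libraries, from 10.7 to 28.5 and from 2.81 to 14.4 after 1 h, and from 1059 to 1192 and from 1015 to 1144 after 10 h.

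After scaling to library size, SORCS2 had 27.0 ± 10.9 normalised counts in vehicle, 13.4 ± 6.54 after 1 h and 1045 ± 59.1 after 10 h (mean ± SD, n = 2 each). The fitted log2 fold change of Nut 10h over Nut 0h was 5.26 (SE 0.20), a 38.3-fold higher level. Taking each Nut 10h library against each vehicle library, the ratio was never below 28.9 and never above 56.2. Most of that width comes from the vehicle side, where the smaller count was 20. A larger fold change was found for 7 of the 16565 genes, and 0 of these 7 reached a mean of 100 normalised counts over the 6 libraries. Among the 11576 genes that did reach this mean, SORCS2 ranked 1, although it reached the mean only through its Nut 10h libraries. These ranks are a description, since SORCS2 was chosen with results known.

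After 1 h the fitted log2 fold change of SORCS2 was -0.96 (SE 0.38), and the groups did not overlap, although the higher Nut 1h library stood at 0.934 of the lower vehicle library. That value rests on few counts. It was -1.61 without replicate 1 of Nut 1h, -0.59 without replicate 2 of Nut 1h, -1.32 without replicate 1 of Nut 0h and -0.48 without replicate 2 of Nut 0h. Between Nut 1h and Nut 10h, SORCS2 differed by 6.22 on the log2 scale (SE 0.23). That difference was 6.86 without replicate 1 of Nut 1h and 5.85 without replicate 2 of Nut 1h.

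**Figure D1:**
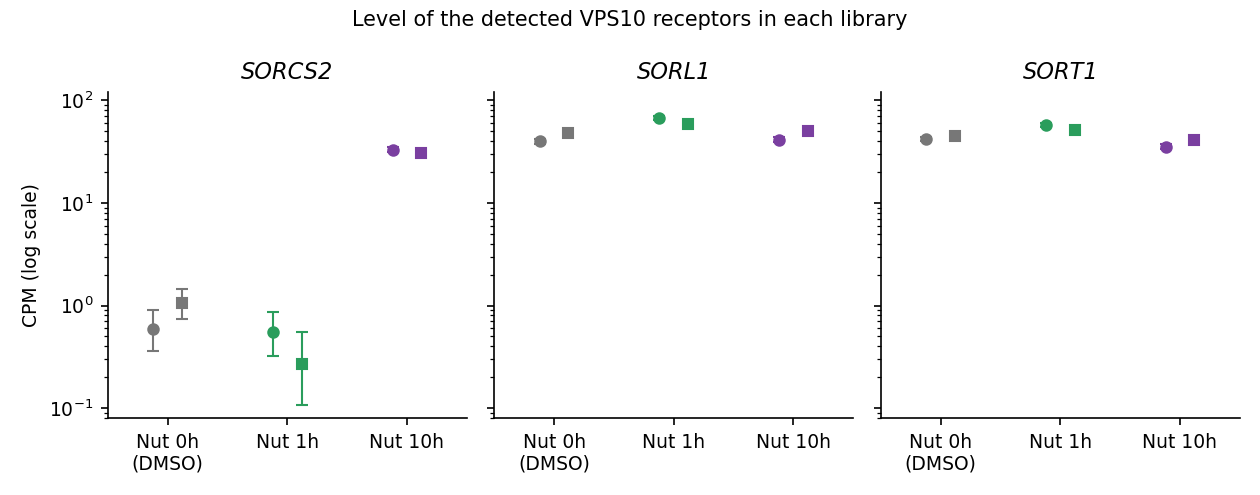
CPM of SORCS2, SORL1 and SORT1 in each library on a log axis, with exact 95% Poisson intervals of the counts as bars (circles are replicate 1 and squares replicate 2). SORCS2 lies at or below 1.05 CPM in the 4 libraries of Nut 0h and Nut 1h and at 32.9 and 30.4 CPM after 10 h, while SORL1 and SORT1 stay between 35.3 and 67.5 CPM.

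SORL1, whose product sorts the amyloid precursor protein, was detected in every library at a level near the median of tested genes. It had 1352 and 1680 counts in vehicle, 2221 and 1533 after 1 h, and 1408 and 1774 after 10 h. Scaled to library size this is 1442 ± 192 normalised counts in vehicle, 2079 ± 211 after 1 h and 1506 ± 205 after 10 h (mean ± SD, n = 2 each). Both Nut 1h libraries were above both vehicle libraries, whereas the Nut 10h and vehicle libraries overlapped. The log2 fold change was 0.53 after 1 h (SE 0.12), a 1.44-fold higher level, and 0.06 after 10 h (SE 0.12). The 95% interval of the latter ran from -0.18 to 0.30. Its sign rests on single libraries, with -0.07 without replicate 1 of Nut 0h or without replicate 2 of Nut 10h, and 0.20 without replicate 2 of Nut 0h or without replicate 1 of Nut 10h.

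SORT1 encodes sortilin, a receptor for neurotensin, progranulin and prosaposin. Its counts were 1431 and 1560 in vehicle, 1874 and 1348 after 1 h, and 1205 and 1437 after 10 h, or 1424 ± 58.1, 1788 ± 130 and 1251 ± 122 normalised counts (mean ± SD, n = 2 each). The Nut 1h libraries were both above the vehicle libraries and the Nut 10h libraries both below them. The log2 fold change was 0.33 after 1 h (SE 0.10) and -0.19 after 10 h (SE 0.10), and the 95% interval of the latter, from -0.39 to 0.02, included 0. Without replicate 1 of Nut 10h it was -0.09 and without replicate 2 of Nut 10h it was -0.28.

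SORCS1 and SORCS3, the closest relatives of SORCS2, were at the limit of detection. SORCS3 had 0 counts in all 6 libraries. SORCS1 had 0 counts in 5 libraries and 1 count in replicate 2 of Nut 10h. With 0 counts, a library allows a level of up to 3 counts (a one-sided limit), which corresponds to 0.0846 to 0.114 CPM depending on its depth. In no group did either paralogue reach more than 1 count in a library.

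Of the 3 members that passed the filter, the groups did not overlap for 3 after 1 h and for 2 after 10 h. Over all tested genes the share without overlap was 84.8% for Nut 1h and 61.4% for Nut 10h, and for Nut 10h against Nut 1h it was 85.0%, with all 3 members among them. With 2 libraries in a group, absence of overlap is the rule in this table and marks none of the 3 receptors.

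To compare the receptors with each other, CPM was divided by the length of the longest transcript in kb. In vehicle-treated cells the order was SORT1 (5.99 and 6.35 CPM per kb), SORL1 (3.64 and 4.40) and SORCS2 (0.0952 and 0.171), with no overlap between neighbours. After 1 h the order was the same, with SORT1 at 8.14 and 7.35 CPM per kb, SORL1 at 6.21 and 5.38, and SORCS2 at 0.0889 and 0.0434, again without overlap. After 10 h SORCS2 reached 5.35 and 4.94 CPM per kb, overlapping SORT1 at 5.05 and 5.79, and above SORL1 at 3.80 and 4.60. SORCS2 thus overlapped SORT1 at this time and did not overlap SORL1, a description from 2 libraries without a test. The order also depends on taking the longest transcript as the length. SORL1 has 13 annotated transcripts, SORT1 has 10 and SORCS2 has 4, and which of them were expressed was not examined.

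Of the length-corrected level summed over the 3 receptors, SORCS2 made up 0.978% and 1.57% in the vehicle libraries, 0.616% and 0.340% after 1 h, and 37.7% and 32.2% after 10 h. The share of SORT1 went from 61.6% and 58.1% in vehicle to 35.6% and 37.8% after 10 h. That of SORL1 went from 37.5% and 40.3% to 26.7% and 30.0%. The summed level of the 3 was 9.73 and 10.9 CPM per kb in vehicle, 14.5 and 12.8 after 1 h, and 14.2 and 15.3 after 10 h. The make-up of the family thus went from 2 well-detected receptors in vehicle to 3 after 10 h. Ranked by length-corrected level among the 16137 tested genes with a transcript length, SORCS2 stood at percentile 6.56 in vehicle, 2.47 after 1 h and 52.9 after 10 h, whereas SORL1 stayed between 48.5 and 55.2 and SORT1 between 54.0 and 61.4.

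**Figure D2:**
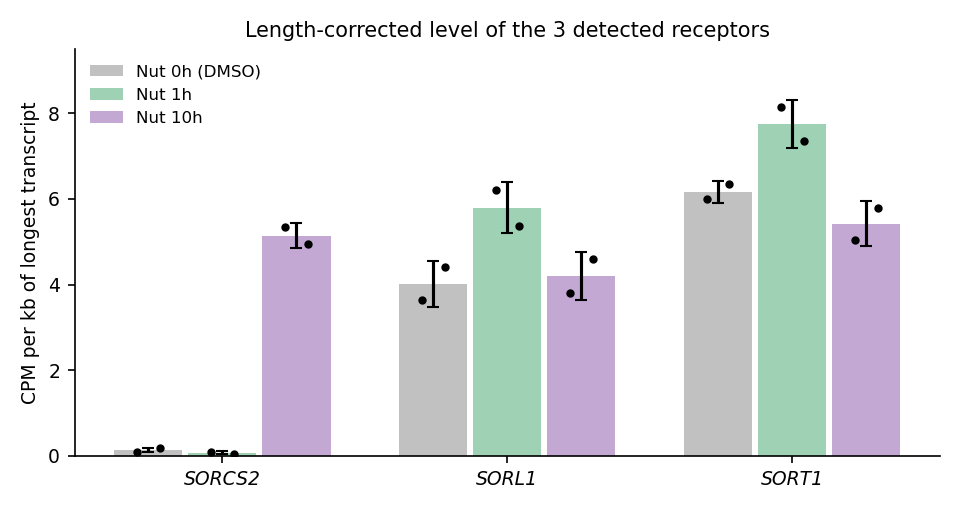
Length-corrected level (CPM per kb of the longest transcript) of the 3 detected receptors. Bars are means of 2 libraries, error bars are SD and points are the libraries. The SORCS2 bar rises from 0.133 in vehicle and 0.0661 after 1 h to 5.15 after 10 h, between SORL1 at 4.20 and SORT1 at 5.42.

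The 1 h values of SORCS2 and SORT1 lay close to the median of genes with a similar base composition, and that of SORL1 lay just above the upper quartile. Across 16137 tested genes, the log2 fold change of Nut 1h over Nut 0h correlated with GC content at r = -0.69, given as a description since these genes share the same 4 libraries. Among the 785 genes within 1 percentage point of the GC content of SORCS2 the median was -0.95 (quartiles -1.23 and -0.65), next to -0.96 for SORCS2 itself. For SORT1 the 1185 genes of like GC content had a median of 0.38, next to 0.33 for SORT1. SORL1, at 0.53, stood above 77.1% of its 1163 genes of like GC content, whose median was 0.16 (quartiles -0.17 and 0.49).

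With an offset for GC content in each library, the 1 h log2 fold change was 0.02 for SORCS2 (SE 0.41), -0.01 for SORT1 (SE 0.07) and 0.38 for SORL1 (SE 0.09). These values are a description, and the 3 receptors were not tested under this offset. Whether the relation with GC content arose in the cells or in the libraries was not tested. The mitochondrial share of counts, 4.99% and 6.18% in vehicle, was 8.44% and 8.15% after 1 h and 6.45% and 7.06% after 10 h, and its part in the 1 h values was not tested either.

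The 10 h values showed no such relation. After 10 h the correlation with GC content was r = -0.03, the 785 genes of like GC content had a median of -0.03, and 99.6% of them lay below SORCS2. With the GC offset the 10 h log2 fold change was 5.31 for SORCS2, 0.04 for SORL1 and -0.21 for SORT1. Between Nut 1h and Nut 10h, where SORCS2 differed by 6.22 without the offset, it differed by 5.30 with it (SE 0.22).

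**Figure D3:**
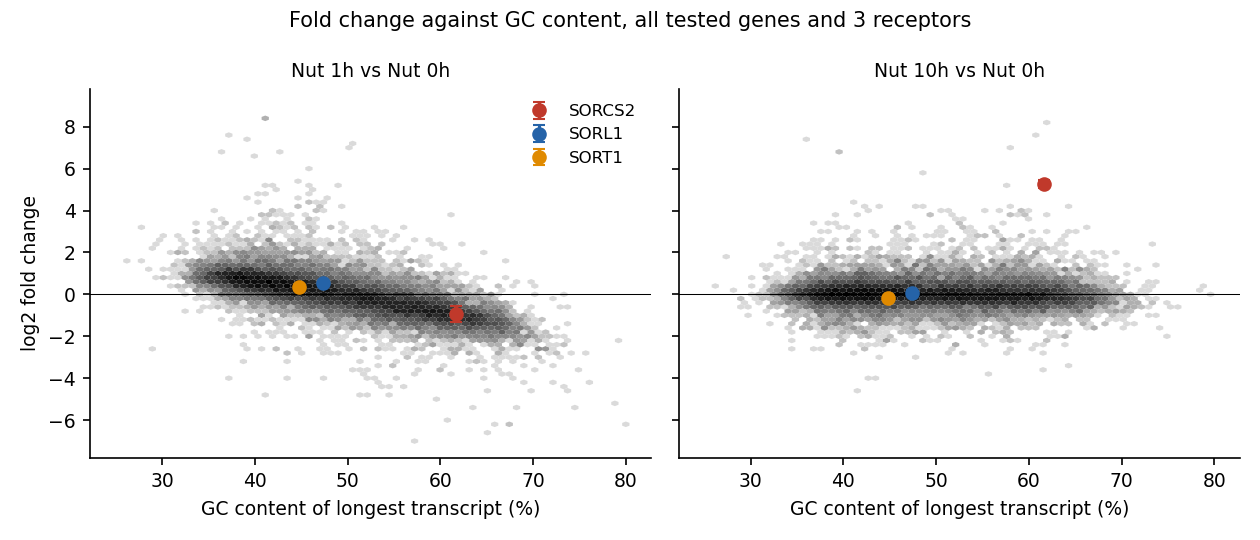
Log2 fold change after 1 h and after 10 h against the GC content of the longest transcript for the 16137 tested genes with a value (grey, darker where genes are denser on a log scale), with SORCS2, SORL1 and SORT1 as coloured points with SE bars. After 1 h the 3 receptors lie within the sloping band of all genes, and after 10 h SORCS2 lies at 5.26 above a flat band.

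The surroundings of SORCS2 were examined because a gene of 550.3 kb can hold other transcripts. Its introns contain MIR4798 and MIR4274, both with 0 counts in every library, and PSAPL1, a prosaposin-like gene on the opposite strand. PSAPL1 had 6 and 7 counts in vehicle, 1 and 1 after 1 h, and 19 and 25 after 10 h. It fell by 2.35 on the log2 scale after 1 h (SE 0.84, adjusted p = 0.0241, edgeR quasi-likelihood test) and rose by 1.73 after 10 h (SE 0.46, adjusted p = 0.0109). Both calls rest on at most 25 counts. The 1 h call was lost without any 1 library of Nut 0h or Nut 1h and with an offset for GC content (-1.52, adjusted p = 0.193) and by DESeq2 (adjusted p = 0.129), and the 10 h call was lost without either library of Nut 0h (1.64 and 1.82) or without replicate 2 of Nut 10h (1.56). How strand was treated in counting is not given in the sources used here, so intronic reads of SORCS2 and reads of PSAPL1 cannot be told apart. None of these genes overlaps an exon of SORCS2.

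The nearest tested gene before SORCS2 is GRPEL1, a co-chaperone of mitochondrial protein import at a distance of 124.5 kb, with a log2 fold change of 0.16 after 1 h (SE 0.09, adjusted p = 0.136) and -0.06 after 10 h (SE 0.09, adjusted p = 0.691). The nearest one after it is AFAP1-AS1, a long non-coding RNA at 11.2 kb with 2 and 4 counts in vehicle, 5 and 6 after 1 h, and 12 and 11 after 10 h. AFAP1-AS1 rose by 1.89 after 10 h (SE 0.62, adjusted p = 0.0334), and after 1 h its value was 1.08 (SE 0.71, adjusted p = 0.195). The 10 h call was lost when any 1 of the 6 libraries was left out, with values from 1.51 to 2.42. It was also lost without the filter on low counts, at 1.85. Of genes that overlap other members, SORL1-AS1 and RNA5SP325 (within SORCS1) had 0 counts, and SORCS3-AS1 had 1 count in 1 Nut 10h library.

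For each detected receptor, the 5 tested genes with the most similar pattern over the 6 libraries were found by the root mean square difference of log2 CPM centred on the mean of each gene. For SORCS2 these were HMCN2 (a hemicentin) at 0.62, TP53I3 (a quinone oxidoreductase known as a p53 target) at 0.85, INPP5D (the inositol phosphatase SHIP1) at 0.85, AC139712.2 at 0.90 and COL5A1 (a fibrillar collagen chain) at 0.91, against a median of 2.74 over all tested genes. All 5 were, like SORCS2, highest in both Nut 10h libraries, which follows from choosing them by likeness to SORCS2 in these same libraries. HMCN2 had a mean of 17.2 normalised counts in vehicle, 4.52 after 1 h and 336.1 after 10 h. TP53I3 had 404.6, 320.0 and 6504 and INPP5D had 41.1, 32.7 and 676.7 at the same times. AC139712.2 had 0, 0.50 and 38.4 and COL5A1 had 3.77, 1.63 and 61.7. The patterns of these last genes outside Nut 10h rest on very few counts.

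No tested gene matched SORCS2 as closely as other genes matched its relatives. The nearest pattern to SORL1 was that of MLH3, a mismatch repair gene, at 0.03, followed by ZNF106, SLC25A36, TET3 and SREK1IP1, against a median of 0.43. The nearest to SORT1 was BMI1, a Polycomb subunit, at 0.02, followed by TXNRD3, PLOD2, TMEM19 and PAQR3, against a median of 0.42. The 10 genes nearest to SORL1 and SORT1 had 1 h log2 fold changes of 0.28 to 0.59 and 10 h values of -0.27 to 0.12. A small distance is easier to reach for a gene that varies little, and these distances are a description without a test.

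**Figure D4:**
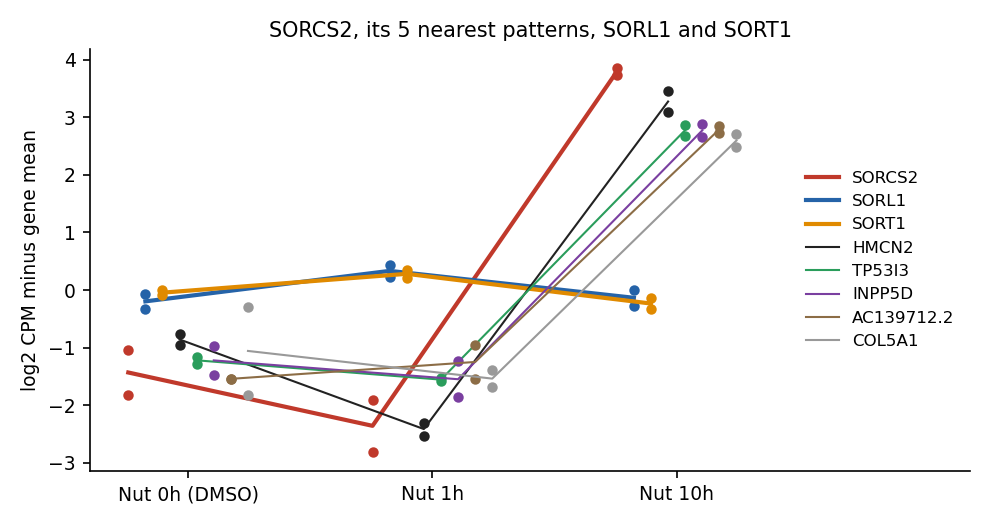
Log2 CPM centred on the mean of each gene for SORCS2, the 5 genes nearest to it, SORL1 and SORT1. Points are libraries, lines join group means, and genes are shifted sideways within a group for legibility. SORCS2 and its 5 neighbours, chosen for their likeness to it in these libraries, separate from SORL1 and SORT1 after 10 h, with SORCS2 highest at 3.85 and 3.73.

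The genes through which VPS10 receptors act were examined as 6 lists with 55 genes in all, of which 46 were tested. After 1 h 18 of the 46 rose, 18 fell and 10 were not called, which is 39.1% in each direction against 34.5% called higher and 32.3% called lower among all tested genes. Their median log2 fold change was -0.07, against 0.05 over all tested genes. After 10 h 9 rose, 7 fell and 30 were not called, or 19.6% and 15.2% against 14.1% and 14.9% among all tested genes, with a median of 0.03 against 0.0002. Between the times 20 of the 46 were higher after 10 h than after 1 h and 15 were lower, where 34.2% and 33.7% of all tested genes were called higher and lower. With the GC offset 8 rose and 17 fell after 1 h, where 23.1% and 23.2% of all tested genes were called, and 13 rose and 8 fell after 10 h, where 18.9% and 20.2% were called.

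The retromer and sorting nexins, which return the receptors from endosomes, had 9 of 11 members called higher and 1 called lower after 1 h (median 0.48). SNX27, the nexin that links cargo to retromer, rose by 0.99 (SE 0.11, adjusted p = 4.26e-06, edgeR quasi-likelihood test) and the core subunit VPS26A by 0.84 (SE 0.11, adjusted p = 9.50e-06). Its paralogue VPS26B fell by 0.88 (SE 0.10, adjusted p = 3.33e-06). With the GC offset 2 of the 11 were higher and 5 lower, with a median of -0.05 against 0.02 over all tested genes. SNX27 and VPS26B were still called, at 0.79 and -0.35. VPS26A was then at 0.15 and no longer called. After 10 h 2 were higher and 1 lower (median -0.10). SNX2 rose by 0.50 (SE 0.09, adjusted p = 0.00107), SNX27 by 0.35 (SE 0.11, adjusted p = 0.0321), and the core subunit VPS29 fell by 0.29 (SE 0.10, adjusted p = 0.0349). The call of SNX27 was lost without replicate 1 of Nut 0h, replicate 2 of Nut 10h or either library of Nut 1h (0.20 to 0.35), and that of VPS29 without any 1 library other than replicate 2 of Nut 10h (-0.36 to -0.23). With only the 2 groups compared, neither was called (adjusted p = 0.0605 and 0.0761).

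Of the trans-Golgi adaptors, the GGA proteins, AP-1 subunits and PACS1 that recruit the receptors into clathrin carriers, 3 of 12 rose and 8 fell after 1 h (median -0.63). AP1S3 rose by 1.13 (SE 0.11, adjusted p = 1.06e-06) and AP1G1 by 0.64 (SE 0.11, adjusted p = 1.82e-04). AP1M1 fell by 1.04 (SE 0.10, adjusted p = 1.14e-06) and AP1B1 by 1.01 (SE 0.12, adjusted p = 4.25e-06). These 4 kept their direction with the GC offset, at 0.48, 0.11, -1.09 and -0.25, whereas the list then had 2 higher and 4 lower members and AP1G1 was no longer called. After 10 h 0 rose and 3 fell (median -0.03), or 3 and 3 with the GC offset. GGA2 fell by 0.59 (SE 0.09, adjusted p = 2.47e-04) and AP1S2 by 0.44 (SE 0.15, adjusted p = 0.0386), a call that was lost without replicate 2 of Nut 0h, replicate 1 of Nut 10h or either library of Nut 1h (-0.44 to -0.20), or with only the 2 groups compared (adjusted p = 0.0663). The mannose 6-phosphate receptors, which share this route, were both higher after 1 h, M6PR by 0.50 (SE 0.09, adjusted p = 2.01e-04) and IGF2R by 0.38 (SE 0.11, adjusted p = 0.00664), and 0 of the 2 were called after 10 h. The call of IGF2R was lost without replicate 1 of Nut 0h (0.25) or replicate 1 of Nut 1h (0.33).

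Among the proteases that mature, shed and cleave the receptors, 4 of 9 rose and 4 fell after 1 h, or 1 and 3 with the GC offset. PSENEN, a gamma-secretase subunit, fell by 2.0 (SE 0.12, adjusted p = 5.29e-08). The sheddase ADAM10 was called higher, at 0.77 (SE 0.10, adjusted p = 1.29e-05), but stood at 0.011 with the GC offset. ADAM17, at 0.44 (SE 0.10, adjusted p = 0.00109), and FURIN, at -0.95 (SE 0.11, adjusted p = 3.17e-06), were also called. Under the GC offset ADAM17 was called in the opposite direction, at -0.27 (adjusted p = 0.00534), and FURIN was not called, at 0.03. After 10 h 4 rose and 1 fell (median 0.29). PSEN2, a catalytic subunit of gamma-secretase, rose by 0.34 (SE 0.11, adjusted p = 0.0246), and APH1A fell by 0.47 (SE 0.10, adjusted p = 0.00274). The call of PSEN2 was lost without either library of Nut 0h (0.34 each), by DESeq2 (adjusted p = 0.0885) or without the filter on low counts (adjusted p = 0.0740), and that of APH1A without replicate 1 of Nut 0h (-0.35).

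The partners with which SORCS2 and sortilin bind proneurotrophins were partly present. NGFR had 632.9 and 502.4 normalised counts in vehicle, 304.0 and 302.0 after 1 h, and 647.7 and 570.4 after 10 h. It was called lower after 1 h, at -0.90 (SE 0.13, adjusted p = 3.84e-05), but stood at 0.19 with the GC offset, and after 10 h its value was 0.10 (SE 0.13, adjusted p = 0.589). BDNF, the neurotrophin whose precursor binds SORCS2, had 542.8 to 662.6 normalised counts over the 6 libraries and was not called, at 0.05 and 0.17. BDNF was called lower after 1 h with the GC offset, at -0.56 (SE 0.09, adjusted p = 1.97e-04). NTF3, NTRK2 and NTRK3 did not pass the filter on low counts, NTF4 was low and not called, and 1 of 4 tested members of this list was called after 1 h and 0 after 10 h, with the GC offset as well as without it, although the called gene was then BDNF in place of NGFR.

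Of the other ligands and cargo, 0 of 8 tested genes rose and 4 fell after 1 h, and 3 rose and 2 fell after 10 h. The GC offset left 1 higher and 4 lower after 1 h, and 4 higher and 2 lower after 10 h. NTSR1, the G protein-coupled neurotensin receptor, fell by 1.49 after 1 h (SE 0.11, adjusted p = 2.06e-07), or by 0.29 with the GC offset, and rose by 0.37 after 10 h (SE 0.11, adjusted p = 0.0204). GRN, which encodes the sortilin ligand progranulin, fell by 1.30 after 1 h (SE 0.12, adjusted p = 7.48e-07), or by 0.25 with the GC offset. After 10 h GRN was at 0.25 (SE 0.12, adjusted p = 0.127), and with the GC offset it was called higher, at 0.31 (adjusted p = 0.00127). Leaving out each library in turn gave 0.08 to 0.42 for GRN after 10 h, with the highest value without replicate 2 of Nut 10h. PSAP (prosaposin) and BACE1 (beta-secretase) rose after 10 h by 0.40 (SE 0.09, adjusted p = 0.00514) and 0.39 (SE 0.11, adjusted p = 0.0203). SLC1A1, a glutamate transporter that SORCS2 sorts in neurons, fell by 0.44 (SE 0.12, adjusted p = 0.0150). The 10 h calls were lost for NTSR1 without replicate 2 of Nut 0h, replicate 1 of Nut 10h or replicate 2 of Nut 1h (0.24 to 0.37), for BACE1 without replicate 1 of Nut 0h, replicate 2 of Nut 10h or replicate 2 of Nut 1h (0.30 to 0.38), and without replicate 2 of Nut 0h for PSAP (0.35) and SLC1A1 (-0.34). DESeq2 called neither BACE1 (adjusted p = 0.0762) nor SLC1A1 (adjusted p = 0.0502). APP was not called at either time, at 0.14 (SE 0.09) and 0.00 (SE 0.09). NTS, LPL, APOB, GDNF and GFRA1 did not pass the filter, and of these NTS had 12 counts in replicate 2 of Nut 10h and 0 elsewhere.

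**Figure D5:**
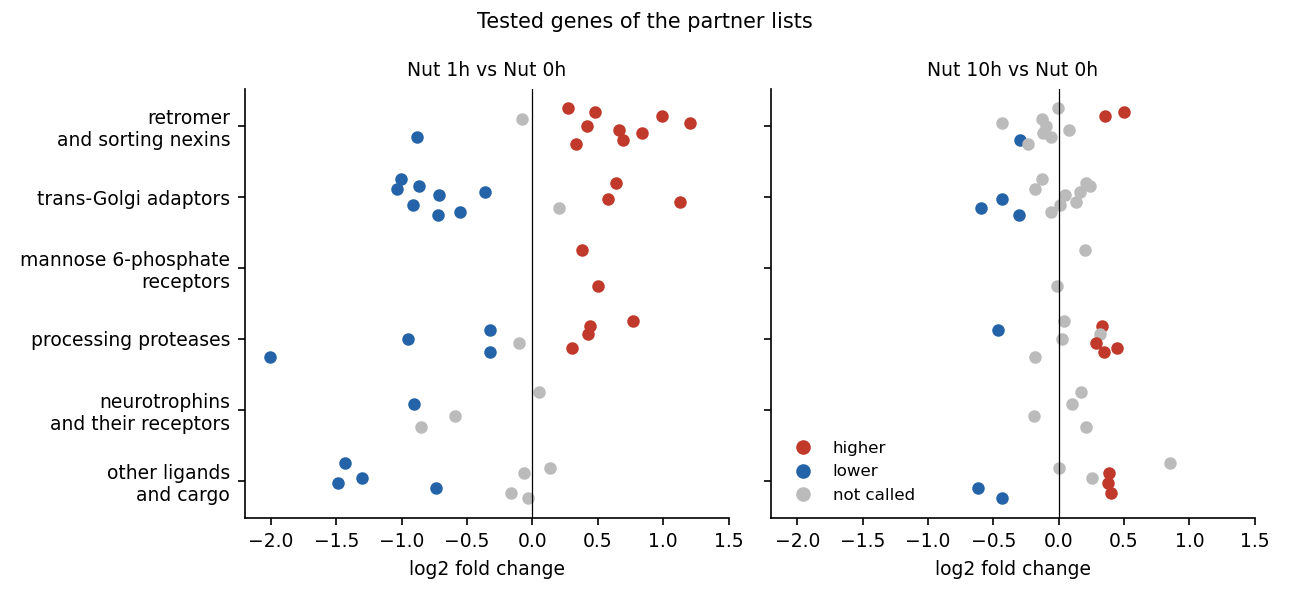
Log2 fold change after 1 h and after 10 h of the 46 tested genes of the partner lists, one point a gene, coloured by the call of edgeR's quasi-likelihood test (adjusted p of at most 0.05 over all tested genes). After 1 h 18 genes lie on each side as called, with PSENEN lowest at -2.0, and after 10 h 30 of the 46 points are uncalled.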

How the data were processed

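RNA-seq was measured in 6 HCT116 libraries, 2 for each of Nut 0h (DMSO), Nut 1h and Nut 10h. Per the study's methods and processing notes, the authors trimmed reads with Trim Galore 0.6.6, aligned them to GRCh37.p13 with STAR 2.7.0f and counted them per gene with featureCounts of Subread 2.0.0. The deposited values are raw counts per gene. Strandedness and treatment of multimapping reads are not given in the sources used here. A second deposited table holds the authors' DESeq2 comparisons, of which the gene symbols and identifiers were used and the fold changes and p-values were not. The 5 receptors and the partner lists were chosen with earlier results of these data known.

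Counts were analysed in R 4.3.3 with edgeR 4.0.16: filterByExpr left 16565 of 57905 genes, libraries were scaled by TMM, and glmQLFit and glmQLFTest were fitted over all 6 libraries with condition as the only term (3 residual degrees of freedom). Benjamini-Hochberg adjusted p-values of at most 0.05 over all tested genes were called. The labels number the replicates but do not say which culture each came from, so that p-values measure the spread between these libraries. Members received no p-value. A normalised count is a count divided by its TMM-scaled library size and multiplied by the mean of these sizes. Gene positions, transcript lengths and GC content (97.4% of tested genes) come from GENCODE v44 lifted to GRCh37, the build of the files, and promoter windows from RefSeq. Figures were drawn with matplotlib 3.10.9.

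Named genes were the 5 members, their annotated overlaps and the tested neighbours of SORCS2, the 5 nearest patterns of each detected member, MDM2 and CDKN1A, and in each list and comparison up to 2 called genes in each direction with the largest change among those with a mean of at least 100 normalised counts. BDNF, NTF4 and APP were named after their values were seen. Some genes that the rule names are not reported here. Replicates of a group differed by more than counting noise (chi-square over degrees of freedom of 5.13 to 16.7). Alternatives were DESeq2 1.42.0, DESeq2 size factors, no filter, a filter of 1 CPM in 2 libraries, only the 2 groups compared, a replicate block, a GC offset (loess span 0.4) with and without the block, and each library left out. Scripts were tested on simulated data.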

Additional observations from a re-analysis of the deposited data

Results flagged for a closer look

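The effects after 1 h and after 10 h were opposite for 2 receptors, in that every treated library lay below the vehicle libraries at one time and above them at the other. Groups did not overlap for 84.8% of all tested genes after 1 h and for 61.4% after 10 h. For SORCS2 the higher Nut 1h library stood at 0.934 of the lower vehicle library. For SORCS2 the difference between the times was 6.22 on the log2 scale, with -0.96 after 1 h and 5.26 after 10 h. For SORT1 it was -0.52, with 0.33 and -0.19. These differences were not tested, and with the GC offset they were 5.30 and -0.20. The offset also ended the opposition, with 0.02 after 1 h for SORCS2 and -0.01 and -0.21 at the 2 times for SORT1, and the 95% interval of SORT1 after 10 h included 0 without it.

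Of the 46 tested partners, 35 differed between 10 h and 1 h, where 67.9% of all tested genes did. For 21 named partners the value after 10 h differed from that after 1 h by edgeR's quasi-likelihood test of the contrast, with adjusted p-values from 9.51e-09 to 0.00963. SNX2, IGF2R, ADAM17 and APH1A, named by the same rule, were not called. The rule picks genes for their change against vehicle, so that this contrast partly restates that choice. Of the retromer and sorting nexins, SNX27 differed by -0.64, VPS26A by -0.96, VPS29 by -0.99 and VPS26B by 0.82. Of the adaptors, AP1S3 differed by -0.99, AP1G1 by -0.43, GGA2 by -0.79, AP1S2 by -1.01, AP1M1 by 0.86 and AP1B1 by 0.88, and M6PR differed by -0.51. Of the proteases, ADAM10 differed by -0.73, PSENEN by 1.82, FURIN by 0.98 and PSEN2 by 0.67. Of the ligands, cargo and their receptors, NGFR differed by 1.01, NTSR1 by 1.86, GRN by 1.56, PSAP by 0.57, BACE1 by 0.45 and SLC1A1 by -0.40. With the GC offset 27 of the 46 partners and 58.4% of all tested genes were called. Of the 21 named differences, 14 were called in the same direction. PSENEN at 1.94, GGA2 at -0.81, AP1M1 at 0.89 and BACE1 at 0.75 were larger than without the offset. The rest of the 14 were smaller, with VPS26A at -0.29, VPS26B at 0.32, VPS29 at -0.32, SNX27 at -0.46 and AP1S3 at -0.37. Also smaller were M6PR at -0.39, PSEN2 at 0.60, NTSR1 at 0.74, GRN at 0.56 and PSAP at 0.20. The other 7 were not called, namely AP1G1 at 0.083, AP1B1 at 0.15, AP1S2 at -0.043, ADAM10 at 0.0079, FURIN at 0.057, NGFR at -0.017 and SLC1A1 at -0.028.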

How the results depend on the processing

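With 2 libraries a group and 7 to 37 counts, the level of SORCS2 in vehicle and Nut 1h is the least precise of the detected receptors, while its rise after 10 h kept its size in all 14 alternatives (4.90 to 5.74). With the GC offset, alone and together with the replicate block, the 1 h value was 0.017 and 0.022 for SORCS2 and -0.012 and -0.012 for SORT1, and Nut 10h over Nut 1h was 5.30 and 5.29 for SORCS2 and -0.20 and -0.20 for SORT1. Partners called higher after 1 h then numbered 8 and 8 in place of 18. Of the 46 partners, 20 changed sign after 1 h, 16 of them called without the offset. Among the named partners these included, with the offset and with offset and block, ADAM17 at -0.27 and -0.27, FURIN at 0.027 and 0.027, NGFR at 0.19 and 0.19, SNX2 at -0.39 and -0.39, AP1S2 at -0.42 and -0.42, APH1A at 0.20 and 0.20, and PSAP at 0.22 and 0.22. Their construction removes the relation with GC content, and the cause of that relation was not tested.

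With only the 2 groups compared, 4 partners were called lower after 10 h in place of 7. Leaving out each library in turn gave 4 to 10 partners called higher and 4 to 7 called lower after 10 h. The higher count fell to 4 without replicate 1 of Nut 0h and without replicate 2 of Nut 1h, and to 5 without replicate 2 of Nut 0h and without replicate 2 of Nut 10h. The lower count fell to 4 without either library of Nut 0h or of Nut 1h. Whether same-numbered libraries share an origin is not known, and their deviations correlated at -0.15, 0.22 and -0.14 between the groups. With the replicate block 10979 genes were called after 1 h and 4893 after 10 h, against 11077 and 4810, and the partner counts stayed at 18, 18, 9 and 7. Single genes kept direction and side of the threshold in 738 of 832 values, lost the call in 66, gained it in 14 and turned in 14. Settings that gave a gene no value were not counted. For PSAPL1 and AFAP1-AS1 these were the filter of 1 CPM, only the 2 groups compared (after 1 h) and DESeq2 (after 10 h).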
